A study of Mus musculus with 4 samples.

Results

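The 138 protein-coding genes examined here encode potassium channels and their auxiliary subunits (94 genes) and ionotropic or metabotropic receptors for glutamate (25 genes by symbol, among them Grina, which encodes no receptor subunit) and GABA (19 genes). They were taken by symbol, as all genes whose names begin with Kcn, Gria, Grin, Grik, Gabr, or Grm and a number, out of 21883 protein-coding genes outside the mitochondrial genome in the RefSeq annotation of GRCm38.p6, the assembly that mm10 names. Most are known from nerve, muscle and heart, and they include many long genes: their median length was 44.7 kb, against 17.1 kb for the 21745 other genes. Although 17 of them have described roles in epithelia, most are not known as genes of the skin, and p63 sites in them can be counted beside those of other genes of the same length.

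The data came from chromatin immunoprecipitation with sequencing (ChIP-seq) for p63 in epidermis, separated from the dermis of mouse dorsal skin at postnatal day 0. The genotypes were p63 alphaKO (alphaKO) and wild type (WT), with 1 ChIP library and 1 input each. The inputs were not used here. The labels do not say how the alphaKO allele was made, from which strain the mice came, or how many animals entered each library.

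Potassium channels set the resting membrane potential and repolarise excitable cells, and several also carry potassium across epithelia. Glutamate receptors carry most fast excitation in the brain, and GABA-A receptors most fast inhibition. The gene of p63, Trp63, yields isoforms that differ in their tails, named alpha, beta and gamma, and the protein binds mainly to distal elements of keratinocyte genes. A ChIP peak shows where the antibody enriched DNA and does not measure the transcripts of the gene it lies in.

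With 1 library per genotype, no difference between alphaKO and WT was tested. The alphaKO list was longer (14593 peaks, median fold enrichment 15.5) than the WT list (10616 peaks, median 8.44). The lowest local background, used as an index of depth under the assumption of equal calling settings, gave a WT to alphaKO ratio of 1.11. Fold enrichment is the authors' own value for each peak, pileup over local background, and is read within its own list, where percentiles give its place. Intervals are 95% Wilson intervals for shares and exact Poisson intervals for rates, and they cover counting error only: the sources used here mention no molecular identifiers, so a molecule may be counted more than once, and neither genes nor peaks are replicates. Of 12 keratinocyte marker genes, among them Krt5, Krt14 and Dsp, 11 had a peak in alphaKO and 12 in WT, where genes of their length would give 3.94 and 3.35.

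Receptor genes carried p63 peaks less often than other genes of their length in both libraries, while potassium channel genes in alphaKO were marked about as often as other genes of their length. A gene counted as marked when it, or the 10 kb beside either of its ends, held a peak summit. Of the 138 genes, 50 were marked in alphaKO (36.2%, 28.7 to 44.5) and 29 in WT (21.01%, 15.0 to 28.6), beside 30.6% and 26.4% of all protein-coding genes. Other genes of the same length, taken in 20 length classes, would give 60.1 marked in alphaKO and 48.0 in WT, so the observed counts were 0.832 and 0.604 times these. The length class share of 43.6% lay inside the interval of the alphaKO value, and that of 34.8% lay above the interval of the WT value. The 94 channel and subunit genes had 37 marked in alphaKO (39.4%, 30.1 to 49.5) and 24 in WT (25.5%, 17.8 to 35.2), where length classes would give 37.3 and 30.4, and both intervals held the length class shares of 39.7% and 32.3%. The 44 receptor genes had 13 marked in alphaKO (29.5%, 18.2 to 44.2) and 5 in WT (11.4%, 4.95 to 24.0), where length classes would give 22.8 and 17.6, and both intervals lay below the length class shares of 51.8% and 39.998%. The 25 glutamate receptor genes had 11 marked in alphaKO (44.0%, 26.7 to 62.9) and 4 in WT (16.0%, 6.40 to 34.7). Length classes would give 13.7 and 10.4. Their alphaKO interval held the length class share of 54.6%, and their WT interval lay below that of 41.5%. The 19 GABA-A receptor genes had 2 marked in alphaKO, where length classes would give 9.15. Differences between libraries, between channels and receptors or between receptor groups were not tested.

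By gene, 25 were marked in both libraries (20.3% of all genes are), 25 in alphaKO only (10.3% of all genes) and 4 in WT only (6.01% of all genes). The length classes would give 40.4, 19.7 and 7.57. The remaining 84 genes (60.9%) had no peak in either list, as did 63.4% of all genes, and length classes would give 70.3. Those marked in alphaKO only were long, with a median of 224 kb, against 58.0 kb for those marked in both and 32.4 kb for those without a peak. Among the other genes these medians were 33.7, 34.8 and 11.9 kb.

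Over all 138 genes the shortfall was uneven with gene length. Among the 19 channel and receptor genes of 100 to 300 kb, 6 were marked in alphaKO (31.6%, 15.4 to 54.0) and 2 in WT (10.5%, 2.94 to 31.4), where 60.4% and 47.4% of other genes of that length were. Among the 27 genes over 300 kb, 19 were marked in alphaKO (70.4%, 51.5 to 84.1), close to the 73.5% of other genes, but 9 in WT (33.3%, 18.6 to 52.2), where other genes reached 52.7%. Under 100 kb the intervals of both libraries held the values of other genes.

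**Figure D1:**
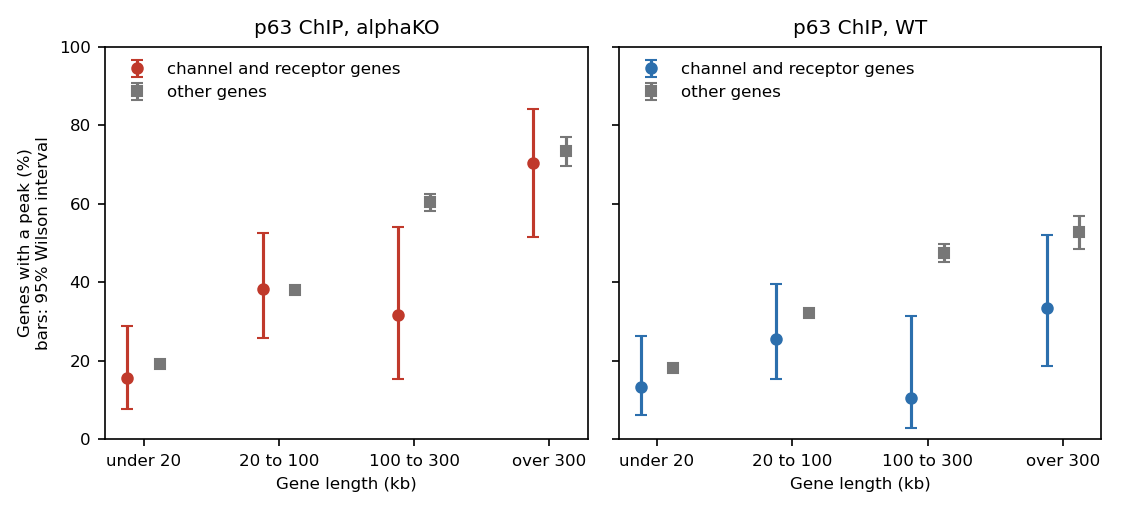
Share of genes with a p63 peak (percent, vertical axis) by gene length in kb (horizontal axis), for the 138 channel and receptor genes (coloured circles) and all other protein-coding genes (grey squares), with alphaKO on the left and WT on the right. Bars are 95% Wilson intervals. Over 300 kb the channel and receptor genes stood at 70.4% in alphaKO and 33.3% in WT, beside 73.5% and 52.7% of other genes.

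Counted as peaks, these genes held 87 in alphaKO and 41 in WT, each assigned to a single gene of the set. Over 23.3 Mb of gene bodies and flanks this was 3.73 per Mb in alphaKO (2.99 to 4.61) and 1.76 per Mb in WT (1.26 to 2.39), where length classes would give 6.09 and 4.26 and all other genes, which are shorter, had 7.76 and 6.42. In genes of 100 to 300 kb the rates were 2.75 per Mb in alphaKO (1.42 to 4.81) and 1.15 in WT (0.373 to 2.68), against 7.79 and 5.66 in other genes. In genes over 300 kb they were 3.01 in alphaKO (2.18 to 4.05) and 0.910 in WT (0.484 to 1.56), against 4.46 and 2.50. Each of these 4 intervals lay below the value of other genes in the same library and length group. In shorter genes the WT interval for 20 to 100 kb (3.00 to 8.25 per Mb) held the other genes' 7.70, and the alphaKO interval (4.66 to 10.8) held their 9.02.

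Most alphaKO peaks in these genes had no counterpart in WT. Only 29 of the 87 (33.3%, 24.3 to 43.8) overlapped a WT peak by at least 1 bp, beside 48.4% of the whole alphaKO list. Other genes of the same length classes would give 48.3%, and peaks of like fold in the whole list would give 48.6%. These are 42.0 and 42.3 of the 87 peaks, while WT had only 41 peaks at these genes. The low share is thus not a result separate from the low WT count. In the WT list 29 of the 41 peaks (70.7%, 55.5 to 82.4) overlapped an alphaKO peak, beside 66.6% of the whole WT list. The overlap of alphaKO peaks was 20.9% (11.4 to 35.2) in genes over 300 kb, where other genes had 42.0%, and 50.0% (31.4 to 68.6) in genes of 20 to 100 kb, where other genes had 53.2%. In genes over 300 kb this share is likewise tied to the WT count, with 43 peaks in alphaKO and 13 in WT.

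The peaks were of ordinary strength within their lists. Their median fold was 16.3 in alphaKO and 8.75 in WT, and these folds lay at the 52.7 and 52.1 percentiles. Peaks found in a single list were weaker than the shared ones: in alphaKO the medians were 14.2 for 58 unshared and 25.9 for 29 shared peaks, and in WT 5.16 for 12 and 10.8 for 29. The 58 unshared alphaKO peaks stood at a median percentile of 45.7, and unshared peaks of the whole alphaKO list at 39.6. In WT these percentiles were 24.5 and 21.04.

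Their positions in the genes stood within counting error of those in other genes of like length. A summit fell within 1 kb of a gene end for 2 alphaKO peaks (2.30%, 0.633 to 7.999) and 4 WT peaks (9.76%, 3.86 to 22.5), where other genes of the same length classes would give 6.38 (7.33%) and 7.58 (18.5%). More than 10 kb inside the gene from both ends lay 59 of the 87 alphaKO peaks (67.8%) and 20 of the 41 WT peaks (48.8%), where the classes would give 54.6 (62.7%) and 17.9 (43.7%). The intervals of the deep shares, 57.4 to 76.7% in alphaKO and 34.3 to 63.5% in WT, and those at gene ends all held the length class value. Of the alphaKO peaks in that position, 44 were among the 58 unshared and 15 among the 29 shared. Another protein-coding gene lay within 10 kb of 7 of the 58 unshared and 10 of the 29 shared alphaKO peaks, so a share of the shared sites cannot be assigned to the channel gene alone.

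**Figure D2:**
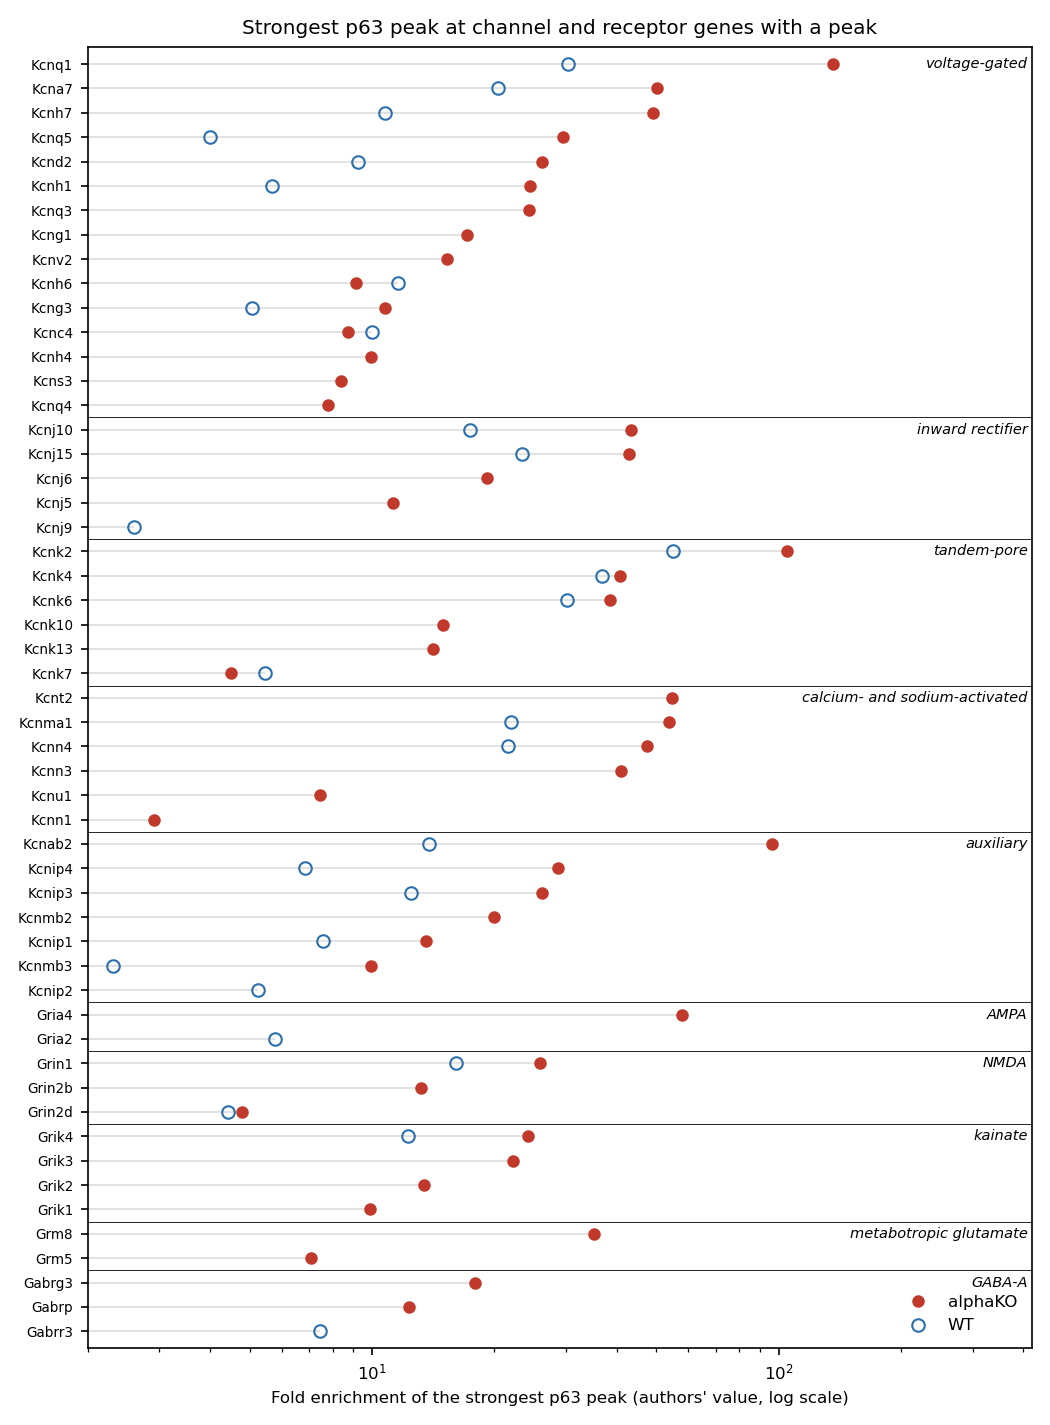
Fold enrichment of the strongest p63 peak (horizontal axis, log scale) at 53 of the 54 channel and receptor genes with a peak, grouped by role, with alphaKO as filled red and WT as open blue circles. A gene with a single circle is listed in that library alone. Kcnq1 and Kcnk2 exceed a fold of 100 in alphaKO, and in WT Kcnk2 is highest at 55.1.

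Voltage-gated potassium channels open on depolarisation. Of 40 such genes, 15 were marked in alphaKO (length classes 16.5) and 9 in WT (13.3), and each of the 9 was also marked in alphaKO. Kcnq1, whose channel repolarises the heart and recycles potassium in epithelia, had the strongest site of the whole set in alphaKO. This peak (chromosome 7, 143385277 to 143386495, mm10, inside the gene) had a fold of 136 in alphaKO, at the 99.5 percentile, and its WT partner had 30.4, at the 94.5 percentile. A second Kcnq1 peak of fold 9.30 was listed in alphaKO only. Kcna7 had folds of 50.1 in alphaKO and 20.4 in WT, but that site lay 2.96 kb outside it and inside Ntf5, a neurotrophin gene.

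Kcnh1 and Kcnh7, which encode channels of the ether-a-go-go family, each held 6 alphaKO peaks and 1 WT peak. The Kcnh1 folds in alphaKO were 14.4, 3.41, 22.1, 16.9, 24.4 and 17.3 along the chromosome, and the WT peak, of fold 5.66, met the weakest of them, 3.41. In Kcnh1 the site present in both libraries was thus the lowest of the alphaKO sites. Kcnh7 had alphaKO folds of 24.4, 49.0, 10.1, 7.60, 8.55 and 16.7, and its WT peak of 10.8 met the strongest, which lay at the gene end near Gca. Kcnd2, an A-type channel gene, had 3 alphaKO peaks of 26.2, 12.2 and 23.9, and the last met its WT peak of 9.23.

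Kcnq3 and Kcng1 were the strongest voltage-gated genes marked in alphaKO only. Kcnq3, a subunit of the neuronal M-current, had a single peak of fold 24.3 (chromosome 15, 66152778 to 66153191), and Kcng1, a modifier subunit, a single peak of 17.1. The nearest WT peaks lay 200.3 kb from Kcnq3 and 17.2 kb from Kcng1. For Kcng3 and Kcnq5 both libraries had a peak, but at different sites: the Kcng3 folds were 10.7 in alphaKO and 5.07 in WT, and the Kcnq5 folds 29.4 in alphaKO and 4.00 in WT.

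**Figure D3:**
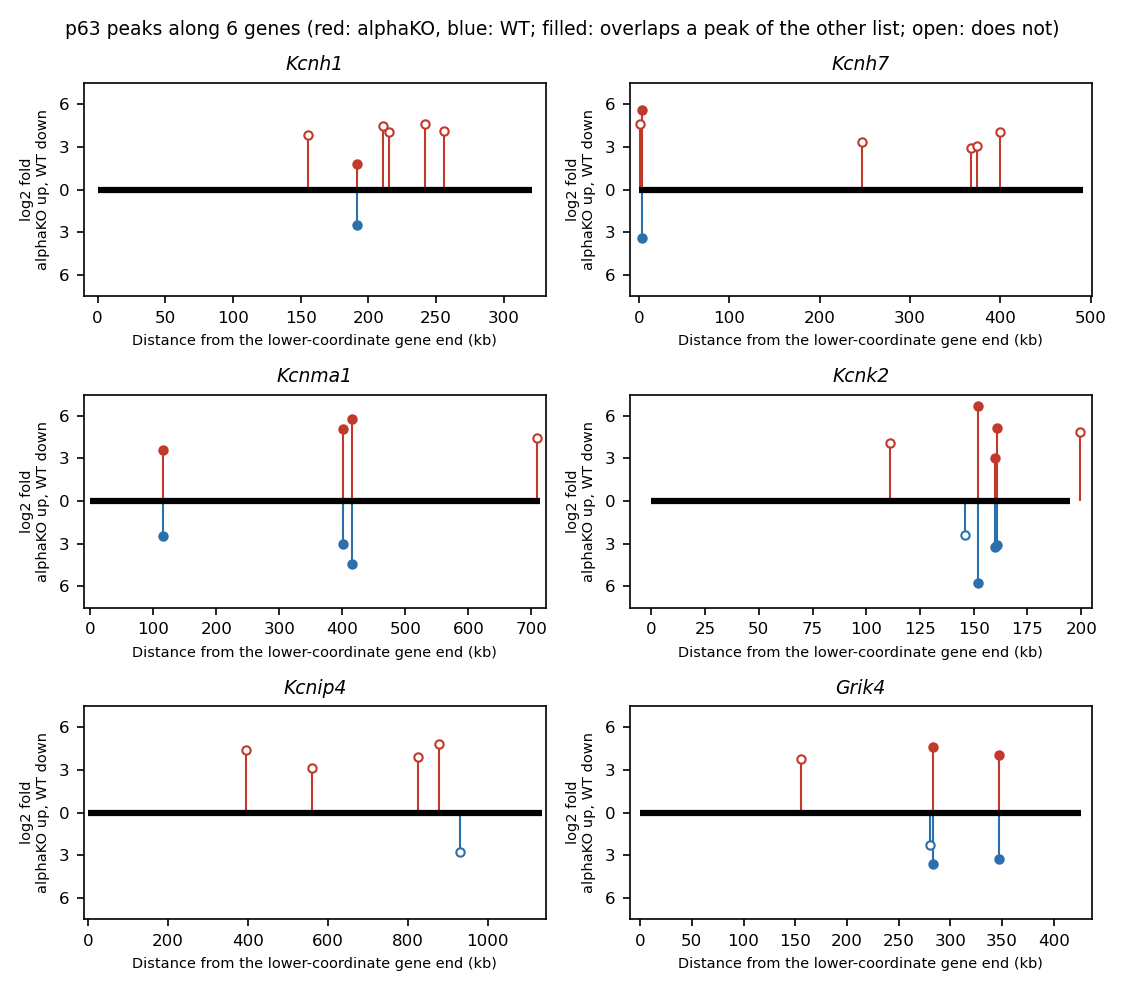
Positions of p63 peaks along 6 of the genes with many or differing peaks, as distance in kb from the gene end with the lower coordinate (horizontal axis), with log2 fold enrichment (vertical axis) drawn upward in red for alphaKO and downward in blue for WT. The black bar is the gene body, filled circles overlap a peak of the other list and open circles do not. Kcnh1 and Kcnh7 show 6 alphaKO peaks and 1 WT peak each, while Kcnk2, Kcnma1 and Grik4 share 3, 3 and 2 sites.

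Inward rectifiers hold the membrane near its resting potential. Of 15 genes, 4 were marked in alphaKO (length classes 5.23) and 3 in WT (4.47). Kcnj10 and Kcnj15, which encode channels found in glia and in transporting epithelia, had shared sites. The Kcnj10 site, inside the gene, had folds of 43.4 in alphaKO and 17.4 in WT. At Kcnj15 a site 0.671 kb from an annotated start had folds of 43.0 in alphaKO and 23.4 in WT, and a site within the gene had 17.3 and 10.7. Kcnj6 (19.2) and Kcnj5 (11.3), partners in G protein-gated channels, were marked in alphaKO only. The WT library alone had a peak for Kcnj9, of the same channel family, and this weak peak of 2.60 lay 8.22 kb outside it and covered a promoter of Igsf8.

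Tandem-pore channels carry leak currents. Of 14 genes, 6 were marked in alphaKO (length classes 5.05) and 4 in WT (4.20), so in both libraries the count was near that of other genes of their length. Kcnk2, which encodes the mechanically gated channel TREK-1, held 5 alphaKO and 4 WT peaks, the most of any of the 138 genes in WT. Its strongest site (chromosome 1, 189359522 to 189360182 in alphaKO, 189359538 to 189360164 in WT) had pileups of 1037 in alphaKO and 512 in WT and folds of 105 and 55.1, at the 98.8 and 99.3 percentiles. The remaining Kcnk2 folds were 16.9, 8.22, 36.0 and 28.4 in alphaKO, and 5.32, 9.20 and 8.75 in WT. Those of 8.22 and 36.0 met the WT peaks of 9.20 and 8.75.

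Kcnk4 and Kcnk6 had strong shared sites in gene-dense surroundings. Kcnk4, the gene of TRAAK, had folds of 40.8 in alphaKO and 36.7 in WT, with Esrra and Catsperz within 10 kb. In both libraries the peak covered a promoter of Gm46646. Kcnk6 had 38.5 in alphaKO and 30.2 in WT, at a site 4.64 kb outside the gene with Catsperg1 nearby. Kcnk10 (15.0) and Kcnk13 (14.1 and 5.81) were marked in alphaKO only.

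The 8 genes grouped by symbol as calcium- and sodium-activated potassium channels (Kcnma, Kcnn, Kcnt and Kcnu) had 6 marked in alphaKO and 2 in WT. Length classes would give 4.17 and 3.22. Kcnu1 was placed here by symbol alone. Of the 6, Kcnn1 was counted only through a peak of fold 2.92, 3.84 kb outside it and inside Arrdc2. Kcnu1 was counted only through a peak of 7.43, 3.21 kb outside it, with Hgsnat within 10 kb. Kcnma1, the gene of the large-conductance BK channel, held folds of 11.9, 34.4, 53.7 and 21.5 in alphaKO and of 5.55, 8.27 and 22.0 in WT, and the WT peaks met the first 3 alphaKO peaks in that order. The unshared Kcnma1 peak lay 3.12 kb from an annotated start. Kcnn4, which encodes the intermediate-conductance channel present in keratinocytes and other epithelial cells, had a shared site with folds of 47.4 in alphaKO and 21.6 in WT, 9.53 kb outside the gene and within 10 kb of Smg9, and an alphaKO peak of 5.43 lay at 6.08 kb. The shared site is the site nearest to the 10 kb limit among those counted. Just beyond it, Kcnrg had its nearest peak at 10.6 kb and Grina at 11.6 kb, in both libraries.

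Kcnt2, a sodium-activated channel gene, and Kcnn3, a small-conductance channel gene, were the strongest of this group in alphaKO only. Kcnt2 had a peak of 54.6 (chromosome 1, 140340769 to 140341297), at the 93.1 percentile, with the nearest WT peak 18.8 kb outside the gene. Kcnn3 had 3 alphaKO peaks of 20.8, 11.2 and 40.9 and none in WT.

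Among 17 genes of auxiliary subunits, 6 were marked in alphaKO and 6 in WT, where length classes would give 6.36 and 5.19. Kcnab2, a beta subunit of voltage-gated channels, had the highest ratio of folds at a shared site: 96.1 in alphaKO, at the 98.4 percentile, and 13.8 in WT, at the 74.0 percentile. Kcnip3, which encodes the calcium-binding protein calsenilin, had a shared site of 26.2 in alphaKO and 12.4 in WT, and an alphaKO peak of 24.0 outside it, inside Prom2. Kcnip4, the longest gene of the set at 1.14 Mb, had 4 alphaKO peaks of 20.7, 8.95, 14.9 and 28.6 and 1 WT peak of 6.86, none of which met. Kcnmb2, a BK beta subunit gene, was marked in alphaKO only (20.0). Kcnmb3, another BK beta subunit gene, was counted through a site inside Zfp639, 8.12 kb outside it, with folds of 9.94 in alphaKO and 2.30 in WT. Similarly, the WT peak of 5.24 counted for Kcnip2 lay 8.68 kb outside it and covered a promoter of Oga.

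Of the 9 ionotropic glutamate receptor genes with a peak, 5 were marked in alphaKO alone, 3 in both libraries and 1 in WT alone. In that order, length classes would give 0.829, 1.83 and 0.136 for the 4 AMPA receptor genes. For the 8 Grin genes they would give 1.09, 2.26 and 0.463, and for the 5 kainate receptor genes 1.01, 2.18 and 0.166. Over all 25 glutamate receptor genes the observed counts were 8, 3 and 1, where length classes would give 4.35, 9.30 and 1.07. Of the 4 AMPA receptor genes, 1 was marked in alphaKO and 1 in WT, where length classes would give 2.66 and 1.964. Gria4 had an alphaKO peak and Gria2 a WT peak. The Gria4 peak (chromosome 9, 4794807 to 4795313) had a fold of 57.8, at the 93.9 percentile, the highest of all unshared peaks in the set, and lay 1.19 kb from an annotated start. The nearest WT peak was 561 kb from Gria4. The Gria2 peak had a fold of 5.76 at the 30.2 percentile of the WT list, and the nearest alphaKO peak was 79.5 kb away. Gria1 and Gria3 had none.

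Of 8 genes whose symbols begin with Grin, 3 were marked in alphaKO and 2 in WT, near the length class counts of 3.35 and 2.72. Grin1, the subunit that every NMDA receptor needs, had 3 shared sites, all outside the gene, with folds of 7.55, 10.6 and 25.9 in alphaKO and 7.12, 8.07 and 16.1 in WT. The weakest lay inside Anapc2 and the next within 10 kb of Anapc2, Lrrc26 and Tmem210, and the strongest was 1.51 kb from the start of Grin1 with no other gene within 10 kb. Grin2b was marked in alphaKO only, by peaks of 13.2 and 11.4. Grin2a, at 428 kb, had no peak within 335 kb in either list. Of 5 kainate receptor genes, 4 were marked in alphaKO and 1 in WT, where length classes would give 3.19 and 2.35. Grik4 had folds of 13.6, 24.2 and 16.3 in alphaKO and 4.98, 12.3 and 9.75 in WT, and the last 2 of each list were shared sites. Grik3 (22.2), Grik2 (13.4) and Grik1 (9.89) had 1 peak each in alphaKO only.

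Metabotropic glutamate receptors signal through G proteins. Of their 8 genes, 3 were marked in alphaKO (length classes 4.45) and none in WT (3.34). Grm8 had 2 alphaKO peaks of 12.002 and 35.1, and Grm5 had a peak of 7.08. Grm7, at 922 kb the longest gene of the set without a peak, had its nearest alphaKO peak 62.0 kb away and its nearest WT peak 1458 kb away.

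GABA-A receptor genes had the lowest ratio to the length class count of all role groups in alphaKO, 0.219, and in WT the lowest but for the metabotropic receptors, 0.138. Of 19 genes, 2 were marked in alphaKO (10.5%, 2.94 to 31.4) and 1 in WT (5.26%, 0.935 to 24.6), where length classes would give 9.15 and 7.22. No gene was marked in both, against 6.15 by length. Gabrg3 (17.9) and Gabrp, which encodes the pi subunit found in epithelia outside the brain (12.3), had alphaKO peaks, and Gabrr3, a rho subunit gene best known from the retina, had WT peaks of 3.26 and 7.46. Most of these genes stand in 4 clusters with 14 genes in all. The intervals above count each gene separately, although neighbours in a cluster are not separate draws, so they may be too narrow. Within 10 kb of the cluster on chromosome 5 (Gabrg1, Gabra2, Gabra4 and Gabrb1, 1.40 Mb) there was 1 alphaKO peak and no WT peak, and the same was true of the cluster on chromosome 7 (1.11 Mb) and of that on chromosome 11 (0.722 Mb). The cluster on chromosome X (0.586 Mb) had none. Of the 14 genes only Gabrg3 was marked, because the peaks on chromosomes 5 and 11 lay between genes, more than 10 kb from each.

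RefSeq promoters, 250 bases before to 50 after a start (GRCm38.p6), were on hand for 99 of the 138 genes. A peak covered part of a promoter at 2 of these in alphaKO (2.02%) and 3 in WT (3.03%), where 3.48% and 7.60% of all 17491 genes with a promoter were covered. Grin2d and Kcnk7 were covered in both libraries and Kcng3 in WT. The peaks were weak, with folds of 4.80 in alphaKO and 4.42 in WT at Grin2d, 4.50 and 5.46 at Kcnk7, and 5.07 in WT at Kcng3. The Grin2d peaks reached into the last 7 bases of its promoter in alphaKO and the last 35 in WT. The promoters of Kcnk7 (chr19:5704221-5704520, plus strand) and Kcng3 (chr17:83631846-83632145, minus strand) are shown because they hold the only summits found in a promoter of the set, and capitals mark the 21 bases around the WT summit, which lay 157 and 154 bases before the start.
Kcnk7: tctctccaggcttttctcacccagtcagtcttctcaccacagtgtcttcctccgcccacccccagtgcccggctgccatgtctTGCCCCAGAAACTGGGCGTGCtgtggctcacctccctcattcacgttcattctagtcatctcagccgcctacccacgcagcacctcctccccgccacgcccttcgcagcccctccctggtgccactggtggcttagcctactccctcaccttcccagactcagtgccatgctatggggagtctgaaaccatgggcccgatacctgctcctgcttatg
Kcng3: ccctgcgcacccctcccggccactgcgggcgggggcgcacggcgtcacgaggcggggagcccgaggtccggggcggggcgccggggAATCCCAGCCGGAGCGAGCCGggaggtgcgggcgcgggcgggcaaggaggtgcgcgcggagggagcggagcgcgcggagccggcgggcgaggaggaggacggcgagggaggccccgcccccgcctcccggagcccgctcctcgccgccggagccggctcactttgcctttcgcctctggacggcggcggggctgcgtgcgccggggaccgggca

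The median G and C content was 52.7% over all 32851 promoters and 58.3% over the 131 of the set. Both promoters shown were above these, at 61.0% for Kcnk7 and 82.0% for Kcng3. Neither of them, nor that of Grin2d, held the p53-family consensus decamer, a palindrome that reads the same on both strands. It occurred in 5 of 131 promoters of the set (3.82%) and in 8.36% of all promoters. These 5 belonged to Gabra2, Kcnab1, Kcnab2, Kcnip4 and Kcnn1, and no peak covered them.

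The sites listed in both libraries were placed almost identically. Summits of the 29 pairs lay a median of 9 bp apart, and 8 bp over all 7070 alphaKO peaks with a partner. Side by side, the alphaKO fold was a median of 1.91 times the WT fold (quartiles 1.11 and 2.49), and 1.68 times (1.19 and 2.41) over all such sites. The lists differ in overall fold, so these ratios describe the files and not a change in binding. The ratio was below 1 at 5 of the 29 sites, in Kcnh1, Kcnh6, Kcnk7, Kcnc4 and Kcnk2, and at 16.4% of all sites. At Kcnh6 the folds were 9.12 in alphaKO and 11.6 in WT, at the 21.02 and 66.5 percentiles of their lists. At the opposite end stood Kcnab2, with a ratio of 6.96, Kcnh7 with 4.55 and Kcnq1 with 4.48.

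**Figure D4:**
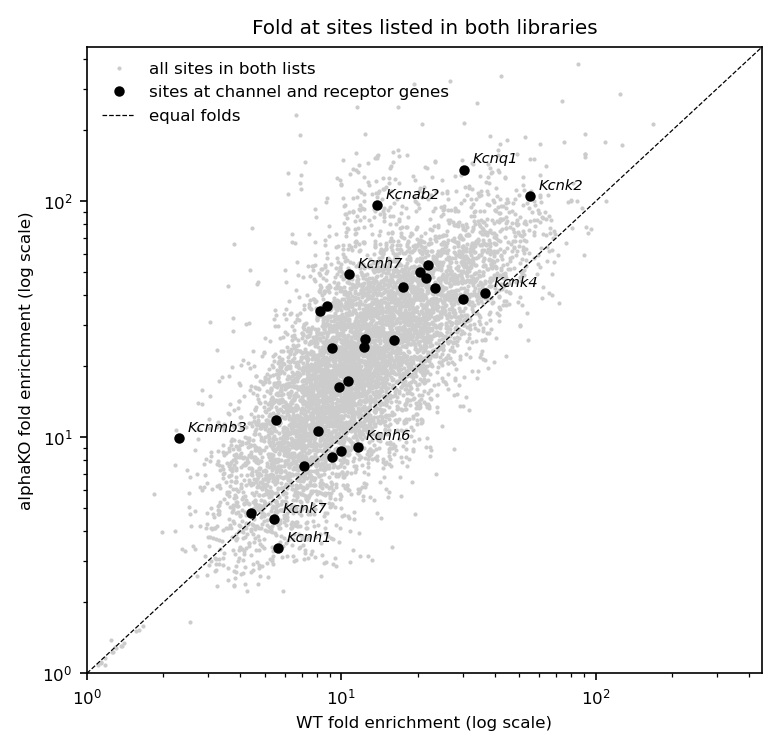
Fold enrichment in alphaKO (vertical axis, log scale) and in WT (horizontal axis, log scale) at the 7070 sites listed in both libraries (grey) and at the 29 of them that lie at channel and receptor genes (black). The dashed line marks equal folds. Kcnab2 lies far above it and Kcnh1, Kcnk7 and Kcnh6 lie below it.

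Genes with described roles in epithelia were marked about as often as other genes of their length, within wide intervals. Of 17 such genes, 7 were marked in alphaKO and 6 in WT, where length classes would give 5.69 and 4.89. The other 121 genes had 43 and 23, against 54.4 and 43.1. All 6 of the WT genes, Kcnq1, Kcnn4, Kcnma1, Kcnk6, Kcnj10 and Kcnj15, had a site shared with alphaKO, and Gabrp was marked in alphaKO only. The remaining 10 were not marked: Kcne1, Kcne2, Kcne3, Kcnk1, Kcnk5, Kcnj1, Kcnj13, Kcnj16, Kcnmb1 and Grina, the last of which encodes a widely expressed membrane protein and no receptor subunit. With 17 genes the intervals were wide (21.6 to 64.0% in alphaKO and 17.3 to 58.7% in WT). They held the length class shares of 33.5% and 28.8%. They also held the shares of the other 121 genes, 35.5% and 19.0%, and the difference from these genes was not tested.

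Other genes of glutamatergic, GABAergic and glycinergic synapses gave similar raw shares, but they were longer, with a median of 86.4 kb against 44.7 kb. Of 30 such genes outside the set, 10 were marked in alphaKO (33.3%, 19.2 to 51.2) and 5 in WT (16.7%, 7.34 to 33.6), where length classes would give 15.2 and 12.03. The ratios to these counts were 0.657 and 0.416, beside 0.832 and 0.604 for the set. The alphaKO interval held the length class share of 50.8%, and the WT interval lay below that of 40.1%. The strongest were Dlg2, a synaptic scaffold gene of 1.97 Mb (43.3 in alphaKO and 26.5 in WT), Slc1a3, a glial glutamate transporter gene (27.1 and 7.45), Grid1 (21.2 in alphaKO only) and Glrb (16.5 in alphaKO only). Of the vesicular transporter genes, Slc32a1 was marked in alphaKO only (13.5), and Slc17a6, Slc17a7 and Slc17a8 were not marked. Gad1 and Gad2, which encode the enzymes that make GABA, were not marked either.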

How the data were processed

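Each p63 ChIP library gave 1 peak list. The submitters' processing notes name the aligner Bowtie2, the peak caller MACS2 2.1.1.20160309 and the build mm10. The sources used here do not give options, control libraries or the handling of duplicates. For every peak the authors deposited, per the file headers, the summit pileup (coverage signal), the fold enrichment (a ratio to the local background), and −log10 of the p-value and of the q-value. Read totals were not used here, so the only measure of depth is the index in the report, from the lowest background (pileup plus 1, over fold, minus 1) per bp of the smallest peak width.

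Genes and promoters came from RefSeq (GRCm38.p6). Exons and sequence outside promoters were not analysed here. A count by length class is the sum, over the genes of a list, of the share marked among protein-coding genes outside the set in the same of 20 classes of equal gene number. It describes these libraries and is no test. For peak rates, bodies and 10 kb flanks were summed over genes, so among other genes a peak near several genes counts once for each. Each genotype had 1 library, so no replicate spread exists.

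The genes, lists and role groups were chosen with earlier results of these data known. Genes were named by rule: per role group, up to 3 marked in both libraries and up to 2 in a single library, by fold, then the 5 with most peaks, the 5 longest without a peak, those with a gene-end peak in both libraries, and the epithelial list. A gene that this rule names is not reported here. Kcnd2, Kcng3, Kcnq5, Kcnh6, Kcnc4, Kcnmb3, Grik1, Grm5, Gria1, Gria3, Kcnrg, Kcnd1, Kcne1l and the genes of the GABA-A clusters and promoters were named outside it, after their values were seen. Kcnu1, Kcnip1 and the synaptic gene Slc32a1 were also named after their values were seen. The assignment of peaks to genes and the overlap of peaks were first tested on simulated peak lists with known answers. The length class ratio of the full calculation was only recorded, for the last simulated run, without a pass limit. The software was SciPy 1.17.1, pandas 2.3.3 and NumPy 2.4.6 under Python 3.11.15, with matplotlib 3.10.9 for plots.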

Additional observations from a re-analysis of the deposited data

How the results depend on the processing

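Of 94 values under alternative settings, 84 stayed within 1.5 times of a count or within the interval of a share or ratio, and 10 moved further. The causes were not tested beyond what a setting changes by construction, such as a wider window. With 50 kb flanks the marked genes numbered 81 in alphaKO, 55 in WT and 50 in both. WT alone marked 4 genes in the report, but 9 with equal list lengths, 2 in gene bodies only and 2 with 5 kb flanks. With equal list lengths 48.8% of WT peaks had a partner, since fewer alphaKO peaks remained, and the genes marked in alphaKO only were 19. Within 2 kb and 5 kb of a gene end lay 9.20% and 24.1% of alphaKO peaks, and within 5 kb 31.7% of WT peaks. The ratio of marked genes to the length class count stayed between 0.769 and 0.925 in alphaKO and between 0.537 and 0.758 in WT, below 1 under each of 13 alternatives. No paired analysis was possible because each genotype had 1 library, and for the same reason no library could be left out. A gene without a peak can hold a site under the caller's threshold.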

Other observations

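The set includes 6 genes on chromosome X (Gabra3, Gabre, Gabrq, Gria3, Kcnd1 and Kcne1l), and none was marked in either library. Of the 960 other protein-coding genes on X, 14.2% were marked in alphaKO and 8.54% in WT, which is below the share over all chromosomes. These shares are not matched for gene length, and the 6 genes were not tested against them.

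The 84 genes of the set without a peak had their nearest peak a median of 70.5 kb away in alphaKO and 154 kb away in WT. Among the longest, Kcnb2 (437 kb) had its nearest alphaKO peak 196 kb away and its nearest WT peak 381 kb away, and Kcnab1 (429 kb) had them 156 kb and 150.1 kb away. Gabrb1 (492 kb) had its nearest peak at 23.4 kb in both libraries, although no WT peak lay in the cluster it belongs to.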
